A study of Mus musculus with 6 samples.

Results

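Interferon regulatory factors are transcription factors that bind the promoters of interferon genes and of genes induced by interferon. The 8 members described here, Irf1, Irf2, Irf3, Irf4, Irf5, Irf7, Irf8 and Irf9, were taken by gene symbol from the 30587 rows of the deposited count table, and each symbol matched 1 row. The cells were dendritic cells grown from bone marrow of C57BL/6 mice. WT cultures carried floxed alleles of Hif2a (Hif2afl/fl, 3 libraries), the gene of the oxygen-regulated factor HIF-2α, listed under its symbol Epas1. KO cultures were CD11c-Cre;Hif2afl/fl (3 libraries), in which a Cre transgene driven by the promoter of the integrin gene Itgax recombines those alleles in cells that express CD11c. Both genotypes had 24 h of dimethyloxalylglycine (DMOG), which blocks the oxygen-dependent enzymes that lead to loss of HIF proteins, and then 4 h of α-GalCer, a glycolipid presented by CD1d. No group lacked these agents, and no group carried Cre without floxed alleles, so loss of Hif2a and presence of Cre cannot be told apart. Whether replicates were separate mice or cultures is not labelled, so each p-value reflects only the library-to-library spread, which may be technical.

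All members share an amino-terminal DNA-binding domain with conserved tryptophans. IRF3, IRF5 and IRF7 are activated by phosphorylation downstream of nucleic acid sensors and toll-like receptors, and IRF3 and IRF7 then drive interferon genes. IRF9 joins STAT2 in the complex that interferon receptors activate, and that complex switches on Irf7 among many other genes. IRF1 is induced by interferons and activates antigen presentation genes, IRF2 competes with it for the same sites, and IRF4 and IRF8 are lineage factors of dendritic cell subsets.

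Total counts per library ran from 14668641 to 17884160, and 13249 rows had enough counts to be tested. Epas1 fell from 22.2 ± 1.94 CPM (reads scaled to library size, SD, n = 3) in WT to 11.2 ± 1.55 in KO, with no overlap (log2 fold change -0.98 ± 0.12, edgeR adjusted p = 3.45e-05). The 9 listed markers shared by dendritic cells summed to 8832 to 9298 CPM in WT and 7509 to 8479 in KO, with no overlap, and 4 of them fell and 3 rose. Those that fell were the MHC class II genes H2-Ab1 (-0.49), H2-Aa (-0.45) and H2-Eb1 (-0.44), and Cd74 (-0.30), the gene of their chaperone. Those that rose were Ccr7 (0.55), Zbtb46 (0.50) and Flt3 (0.23), and all these values are log2 fold changes. H2-Eb1, Zbtb46 and Flt3 were named after their values were seen. Itgax, whose promoter drives Cre, had 205 ± 16.4 CPM in WT and 179 ± 32.4 in KO (SD, n = 3 each) and was not called. Macrophage and monocyte markers were abundant too: the summed level of the 12 listed ran from 22317 to 24923 CPM in WT and from 19327 to 19527 in KO. Most of that sum was Lyz2, at 19010.5 ± 1267 CPM in WT and 14363.6 ± 226 in KO (SD, n = 3). Of the 12, 5 were called higher and Lyz2 alone lower. B cell markers, and those of T and natural killer cells, each summed to at most 2.43 CPM in any library. Changes are given as KO over WT, log2 values with their SE, and "called" means an adjusted p under 0.05 in the edgeR quasi-likelihood test over all rows tested.

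Of the 8 members, 6 rose in KO, Irf4 fell and Irf3 was not called. The 7 calls compare with 25.8% of all rows tested, and the 6 that rose with 13.8% called higher. The libraries of the genotypes did not overlap for those same 7 members, against 40.4% of all rows (20.5% higher and 20% lower in KO). The median log2 fold change of the members was 0.34, beside -0.0093 over all rows. Sizes were uneven: Irf7 rose 19.4-fold and Irf9 2.33-fold, whereas the other 4 rose by 1.21 to 1.39-fold. A change of at least 2-fold upward was called in 2.27% of rows. In bulk RNA, fewer cells of a type and less RNA per cell cannot be told apart, which holds for every value here.

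**Figure D1:**
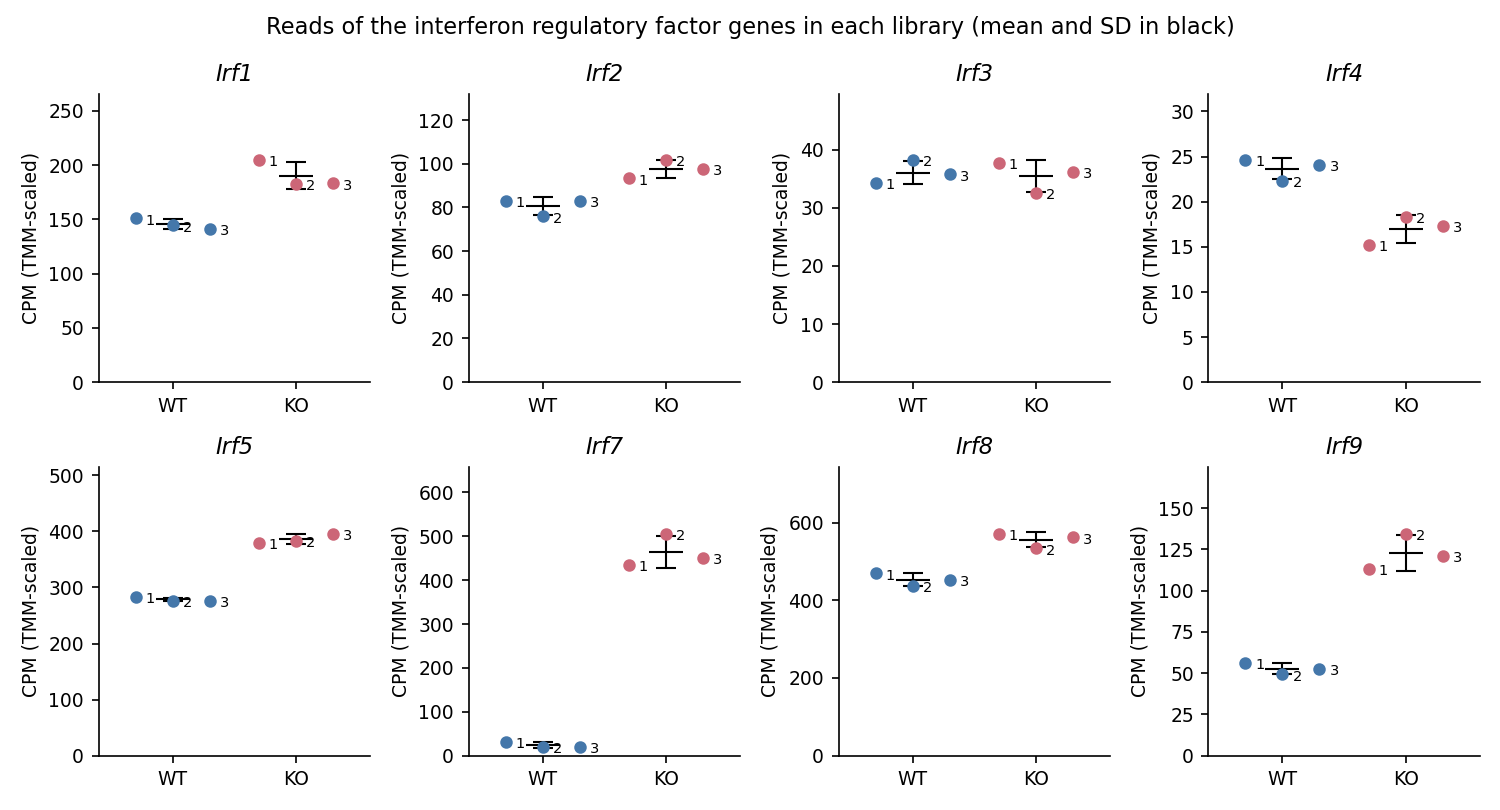
Normalised reads (CPM, y axis from 0) of each member in the 3 WT (blue) and 3 KO (red) libraries, numbered by replicate, with the mean and SD in black. Irf7 stands at 19.9 to 31.2 CPM in WT and 435 to 506 in KO, Irf4 is lower in every KO library, and Irf3 overlaps.

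Irf7, the factor that amplifies type I interferon production, lies at chr7:141262706-141266481 on the minus strand (mm10). WT 1, 2 and 3 held 527, 307 and 300 of its reads, and KO 1, 2 and 3 held 7928, 8544 and 7787. Scaled to depth this was 31.2, 19.9 and 20.5 CPM in WT and 435, 506 and 452 CPM in KO. WT 1 was the high library of its genotype and KO 2 of the other, and the groups lay far apart. The log2 fold change was 4.28 ± 0.15 (edgeR adjusted p = 3.63e-10), and 0.083% of the rows tested had a higher one. With 1 library left out it ran from 4.16 to 4.53. The 45 exon bases that Irf7 shares with Phrf1 on the other strand are 1.19% of its exon length, and Phrf1 was not called (64.4 ± 3.63 CPM in WT, 72.4 ± 2.34 in KO, SD, n = 3).

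Irf7 and Irf8 are also high in plasmacytoid dendritic cells, so their markers are given beside them. The summed level of the 9 listed markers was 99.5 to 109.5 CPM in WT and 117 to 120 CPM in KO, with no overlap. Most of it was Spib (49.8 ± 2.98 CPM in WT, 51.7 ± 5.03 in KO), Runx2 (28.6 ± 1.12, 31.2 ± 3.45) and Tcf4 (21.2 ± 1.02, 29.0 ± 3.36). Values are means with SD (n = 3). Siglech, Ccr9, Ly6d and Klk1 were too low to be tested. Of 5 tested, Tcf4, a lineage factor of these cells, rose 1.37-fold and the others were not called. The defining receptor gene Siglech had 0 to 2 reads in every library. The part of these cells in the Irf7 and Irf8 results was not tested.

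The stretch upstream of Irf7 is shown because this gene changed most. It covers the bases chr7:141266482-141266674 of the RefSeq start window (GRCm38.p6, read 5′ to 3′ on the minus strand), cut where the GENCODE gene begins.
Irf7 upstream: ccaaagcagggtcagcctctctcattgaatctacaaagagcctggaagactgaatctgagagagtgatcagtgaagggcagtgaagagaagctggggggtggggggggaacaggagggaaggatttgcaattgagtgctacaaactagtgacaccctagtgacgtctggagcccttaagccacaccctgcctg
A search of both strands found neither the interferon-stimulated response element core (GAAA, any 2 bases, GAAA), nor the interferon-γ activated site core TTCNNNGAA, nor the hypoxia response core ACGTG in the 250 bases before that start. These letters occur in 2.98%, 7.02% and 16.6% of the 32851 mouse windows of that length. The result says only that the letters are not in this window.

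Irf9, the DNA-binding subunit of the interferon-activated STAT complex, lies at chr14:55603571-55610030 on the plus strand. WT libraries held 950, 761 and 769 reads of it (56.2, 49.3 and 52.4 CPM), and KO libraries 2062, 2271 and 2090 (113, 134 and 121 CPM). Every KO library held more than every WT library. Irf9 rose by 1.22 ± 0.07 on the log2 scale, or 2.33-fold (edgeR adjusted p = 5.17e-08), and 1.72% of rows had a higher one. Irf9 shares 2.28% of its exon length with Rnf31 on the same strand. Rnf31, a subunit of a ubiquitin ligase, also rose, from 46.3 ± 0.982 to 73.1 ± 5.88 CPM (SD, n = 3), and reads in the shared stretch may be split between the genes.

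Irf1 and Irf2 encode an activator and a factor that can repress through the same sites, and both rose by a small amount. Irf1 (chr11:53770014-53778374, plus strand) had 151, 145 and 141 CPM in WT and 205, 183 and 183 CPM in KO. KO 1 was the highest library, and all KO values lay above all WT values. Irf1 rose by 0.39 ± 0.06 on the log2 scale, or 1.31-fold (edgeR adjusted p = 0.000714).

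Irf2 (chr8:46739732-46847458, plus strand) had 82.9, 75.9 and 82.9 CPM in WT and 93.3, 102 and 97.8 CPM in KO. The groups did not overlap, though KO 1 was only a little above WT 1. On the log2 scale the rise was 0.28 ± 0.06, or 1.21-fold (edgeR adjusted p = 0.00393). The 95% intervals of the 2 fold changes were 1.19 to 1.44 for Irf1 and 1.11 to 1.32 for Irf2, and the difference between the genes was not tested.

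Upstream stretches of Irf1, Irf2 and Irf8 are shown because these were the members with a match to the motifs searched, among 11 RefSeq start windows that covered all 8 genes. Capitals mark the matches, and all 3 stretches are plus-strand sequence of GRCm38.p6, at chr11:53769912-53769944, chr8:46739495-46739541 and chr8:120736160-120736225.
Irf1 upstream: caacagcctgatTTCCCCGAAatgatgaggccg
Irf2 upstream: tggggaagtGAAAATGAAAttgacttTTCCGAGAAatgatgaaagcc
Irf8 upstream: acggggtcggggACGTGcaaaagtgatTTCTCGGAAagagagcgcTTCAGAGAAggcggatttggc
In Irf1 the interferon-γ activated site core begins 90 bases before the start. Irf2 held the interferon-stimulated response element core at 241 bases and an activated site core at 224 bases. Irf8 held 2 activated site cores, at 171 and 153 bases, and the hypoxia response core at 186 bases. None of the other 8 windows held any of the 3 motifs. A match is a description of the letters and not evidence that a factor is bound.

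Irf5 and Irf3 are latent factors that signalling activates. Irf5, which drives inflammatory cytokine genes downstream of toll-like receptors, lies at chr6:29526625-29541871 on the plus strand. It had 283, 277 and 277 CPM in WT and 380, 383 and 396 CPM in KO. The replicates were close to each other and the genotypes well apart. The log2 fold change was 0.47 ± 0.06, or 1.39-fold (edgeR adjusted p = 7.02e-05). Irf5 shares 411 exon bases, 14.2% of its exon length, with Tnpo3 on the other strand, and the strand setting of the counting is not given. Tnpo3, a nuclear import receptor gene, had 53.9 ± 2.78 CPM in WT and 54.4 ± 3.70 in KO (SD, n = 3) and was not called.

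Irf3, the constitutive factor that starts interferon-β transcription, lies at chr7:44997648-45002848 on the plus strand. It had 34.2, 38.2 and 35.7 CPM in WT and 37.7, 32.5 and 36.2 CPM in KO, and the groups overlapped. The log2 fold change was -0.02 ± 0.08 (edgeR adjusted p = 0.872). The 95% interval of its fold change ran from 0.873 to 1.11, so a change larger than that in either direction lies outside the interval. Its sign turned under library-size scaling and without WT 2 or KO 2, at 0.012, 0.022 and 0.038.

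Irf4 and Irf8 moved in opposite directions. Irf8, a factor of the cDC1 lineage and of monocyte development (chr8:120736358-120756694, plus strand), had 469, 438 and 452 CPM in WT and 572, 534 and 562 CPM in KO. All 3 KO libraries were above all WT libraries. Irf8 rose by 0.29 ± 0.06 on the log2 scale, or 1.23-fold (edgeR adjusted p = 0.00301).

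Irf4, a factor of the cDC2 lineage that is also needed for dendritic cell migration (chr13:30749226-30766976, plus strand), was the only member that fell. WT libraries held 416, 345 and 353 of its reads (24.6, 22.3 and 24.1 CPM), and KO libraries 278, 309 and 298 (15.2, 18.3 and 17.3 CPM). Every KO library was below every WT library. Irf4 fell by 0.48 ± 0.09 on the log2 scale, to 0.715 of its WT level (edgeR adjusted p = 0.00224), in a direction called for 12% of all rows. Per kilobase of exon, the level of Irf4 was 7.54%, 7.34% and 7.66% of that of Irf8 in WT and 3.84%, 4.94% and 4.43% in KO. The ratio was thus 1.71-fold lower in KO, and the exact two-sided permutation p was 0.10, the smallest that 3 against 3 libraries allow.

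Markers of the subsets are given beside Irf4 and Irf8. The 8 cDC1 markers summed to 326 to 357 CPM in WT and 328 to 393 in KO, and the 8 cDC2 markers to 1304 to 1434 and 1258 to 1373 CPM, with overlap in both. Of the cDC1 markers 4 rose, among them Tlr3 (2.56-fold), Xcr1 (2.60-fold) and Itgae (2.04-fold), and Naaa fell 1.17-fold. Xcr1 and Itgae were low, at 1.96 ± 0.303 and 1.84 ± 0.422 CPM in KO (SD, n = 3). Of 6 cDC2 markers tested, the lectin genes Mgl2 and Clec10a fell 1.34 and 1.43-fold. Their part in the Irf4 and Irf8 results was not tested. Xcr1, Itgae and Naaa lost their calls without WT 1 and without KO 3 (edgeR adjusted p from 0.0505 to 0.134), and Itgae also without WT 2 (0.0601). Mgl2 lost its call without WT 1, WT 2, KO 1 or KO 3 (0.0657 to 0.181), and Clec10a without any single library but WT 1 (0.0534 to 0.167).

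**Figure D2:**
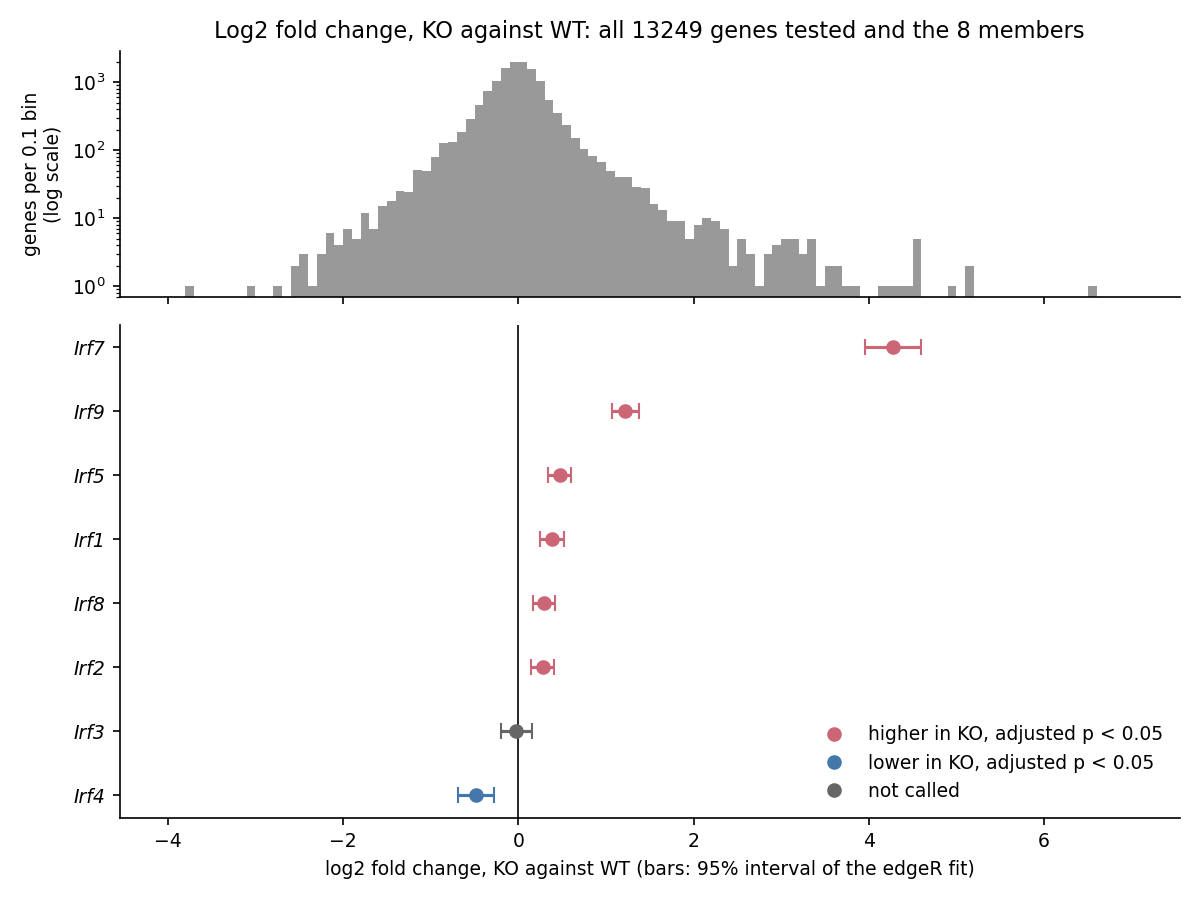
Log2 fold change of all 13249 rows tested (upper panel, counts on a log axis) and of the 8 members with 95% intervals (lower panel). Irf7 at 4.28 lies in the thin upper tail, Irf9 at 1.22 is next, and Irf3 at -0.02 spans 0.

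Levels of different members were compared as CPM per kilobase of annotated exon. In WT, Irf5 was highest at 95.9 ± 1.20 (SD, n = 3), followed by Irf8 at 64.2 ± 2.23 and Irf1 at 36.6 ± 1.22, and these 3 did not overlap. Irf2, Irf3 and Irf9 came next, at 10.9 ± 0.547, 10.5 ± 0.581 and 9.77 ± 0.642, and neighbours among them overlapped between libraries. Irf7 at 6.31 ± 1.68 and Irf4 at 4.83 ± 0.242 were lowest.

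In KO the order changed through Irf7. It moved from the seventh place to the second, at 123 ± 9.88 CPM per kilobase, where it overlapped with Irf5 at 133 ± 2.98. Irf8 (78.7 ± 2.79), Irf1 (47.8 ± 3.16), Irf9 (22.8 ± 2.01), Irf2 (13.2 ± 0.568), Irf3 (10.3 ± 0.776) and Irf4 (3.45 ± 0.318) followed with no overlap between neighbours. The order and its overlaps depend on the gene length used. With the longest annotated transcript, Irf2, Irf3 and Irf9 did not overlap in WT (20.3, 17.8 and 13.6), Irf8 was above Irf5 in WT (131 against 124), and Irf7 in KO (143) was below Irf5 (172) and overlapped Irf8 (160).

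**Figure D3:**
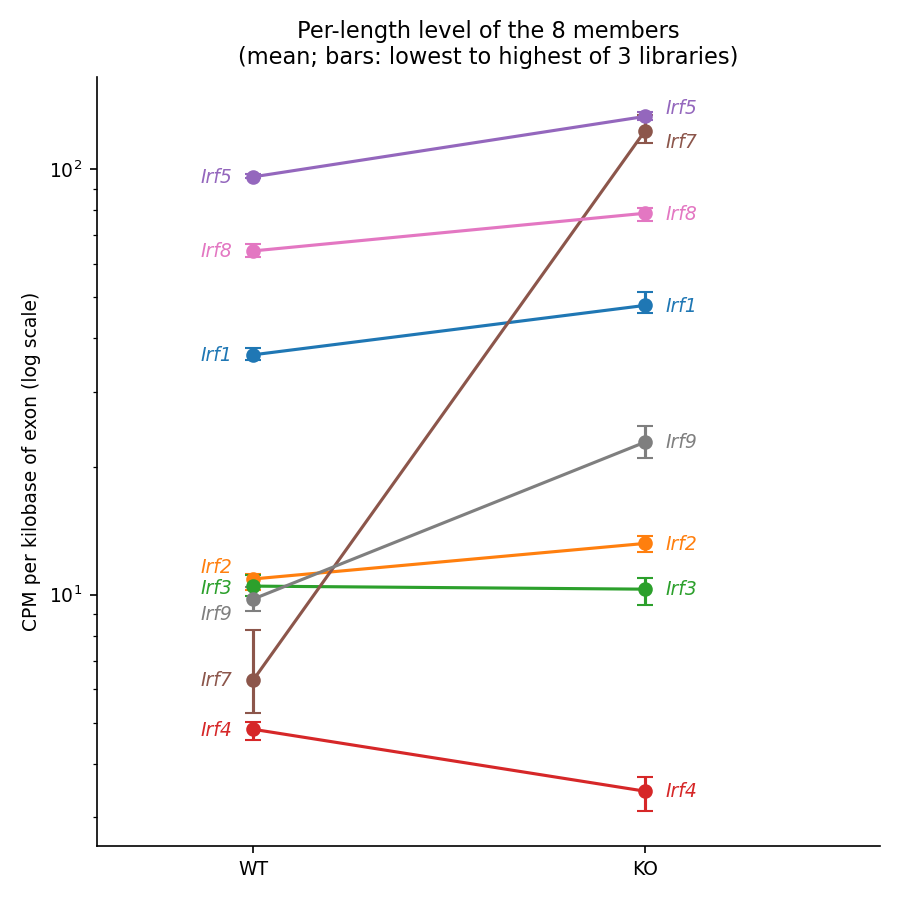
Mean level of each member in CPM per kilobase of exon (log axis) in WT and KO, with bars from the lowest to the highest of 3 libraries. Irf7 climbs from 6.31 to 123, Irf9 from 9.77 to 22.8, and Irf4 declines from 4.83 to 3.45.

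The per-length levels of the 8 members summed to 239 ± 6.69 CPM per kilobase in WT and 432 ± 6.67 in KO (SD, n = 3). Irf7 made up 3.35%, 2.25% and 2.29% of that sum in WT and 27.0%, 30.5% and 27.7% in KO (exact two-sided permutation p = 0.10, the smallest possible). Of the summed increase of 193 CPM per kilobase, 60.4% was Irf7, 19.2% Irf5, 7.51% Irf8, 6.75% Irf9 and 5.81% Irf1. The share of Irf5 in the sum went from 40.1% ± 0.632 to 30.8% ± 0.806 although its level rose, and that of Irf8 from 26.9% ± 0.301 to 18.2% ± 0.920. With longest transcripts the share of Irf7 was 1.89% in WT and 22.3% in KO.

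**Figure D4:**
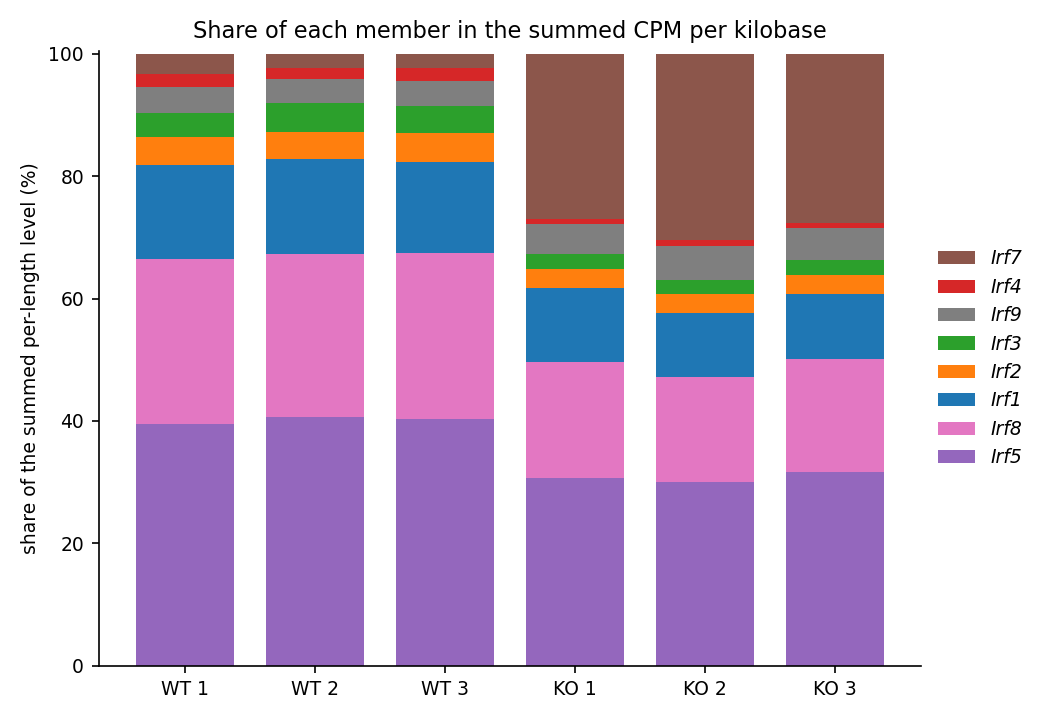
Share of each member in the summed CPM per kilobase of the 8 genes, 1 bar per library. Irf7 (top) takes 2.25% to 3.35% in WT and 27.0% to 30.5% in KO.

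The genes that act on these factors, and their targets, were taken as lists. Each count below stands beside 13.8% of all rows called higher and 12% called lower. Of 12 nucleic acid sensors and toll-like receptors upstream of them, 11 rose and none fell (median log2 fold change 0.68). With 1 library left out, 8 to 11 rose. Tlr3, counted here, is also among the cDC1 markers above. Zbp1, a sensor of left-handed nucleic acids, rose 6.98-fold, and the RNA sensor genes Ddx58 (RIG-I), Dhx58 and Ifih1 rose 4.53, 4.42 and 2.58-fold. The exception, Tlr13, named after its values were seen, had a log2 fold change of -0.15 and was not called. Of 17 kinases and adaptors 7 rose and 1 fell, with a median of 0.06. Ikbke, a kinase that phosphorylates IRF3 and IRF7, rose 1.61-fold, the adaptor gene Myd88 1.44-fold, Mavs 1.32-fold and Ikbkb, a kinase that activates IRF5, 1.24-fold. Tbk1, the other main kinase of IRF3, had a log2 fold change of 0.01 and was not called, and was named after its values were seen. The gene that fell was Tank (-0.17, likewise named), and no gene of the list fell when any library but KO 1 was left out.

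Among 13 DNA-binding partners, 8 rose and none fell, with a median log2 fold change of 0.35. Stat2, the partner of IRF9 in the interferon-activated complex, rose 4.14-fold (45.8 ± 2.55 to 189 ± 31.9 CPM, SD, n = 3). Nfatc2 and Etv6 rose 1.66 and 1.28-fold. Tcf4, which also rose, is counted among the plasmacytoid markers above. Batf3, the partner of IRF8 in cDC1 cells, had a log2 fold change of -0.15 and was not called (named after its values were seen).

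Of 15 brakes on these factors 6 rose and 3 fell, with a median of 0.12. Usp18, which blocks the interferon receptor, rose 2.98-fold, and the ubiquitin ligase genes Trim30a and Trim21 rose by 1.55 and 0.85 on the log2 scale. Atf3, a repressor of inflammatory genes, fell 1.35-fold. Leaving out WT 2 or WT 3 left 1 that fell. The IRF2-binding cofactors Irf2bp1, Irf2bp2 and Irf2bpl were not called, with log2 fold changes of 0.20, -0.13 and -0.06 (0 of 3 by edgeR).

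Interferon receptor and kinase genes changed little. Of 9 tested, Jak2 (log2 fold change 0.26) and Ifnar2 (0.17) rose and none fell, with a median log2 fold change of 0.10. The 2 that rose are 22.2% of those tested, near the 13.8% of all rows called higher. The count was 0 without KO 3, 1 without KO 2, and 4 without WT 3 or KO 1. Ligand genes were near the limit of counting. Ifnb1, the interferon-β gene that IRF3 and IRF7 drive, was too low to be tested: WT libraries held 1, 0 and 0 of its reads, and KO libraries 4, 11 and 12. Of the other interferon genes listed, Ifna4, Ifna5, Ifnk, Ifne and Ifng had at most 4 reads in a library, and Ifna1, Ifna2, Ifnl2 and Ifnl3 matched no row and were not analysed here (all named after their values were seen).

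Genes known as targets of the IRF9-STAT complex all rose, 24 of 24 by edgeR, with a median log2 fold change of 2.56 and a range from 0.87 to 4.55. The list was drawn up with earlier results of these data known, so the count is no independent evidence. It also holds Ddx58 and Ifih1, which were counted among the sensors above. Oasl2, an antiviral gene of the oligoadenylate synthetase family, rose 8.72-fold, the ubiquitin-like modifier Isg15 8.64-fold, Xaf1 5.25-fold and Oas1a 4.01-fold. Oas1a has near-identical copies, and its single value is uncertain.

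Of 19 targets of IRF1, 16 rose and none fell, with a median of 0.39. The peptide transport and loading genes Tap1 and Tapbp rose 2.01 and 1.64-fold, the guanylate-binding protein gene Gbp5 1.88-fold, and the chemokine gene Cxcl10, which is induced by several of these factors, 9.98-fold. Of 8 targets of IRF5, 5 rose and 1 fell, with a median of 0.50. Cxcl10 and Ccl5, which both rose, are counted in both lists. Il1b rose 3.47-fold and Il6 2.31-fold, whereas Tnf and Il12b, named after their values were seen, had log2 fold changes of -0.005 and -0.03 and were not called. The one that fell was Ccl3 (-0.33, likewise named), and no gene of the list fell without WT 1, without KO 3 or with offsets for GC content and length.

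Targets of the lineage factors were called in both directions. Of 11 targets of IRF4, 3 fell and 2 rose, with a median of -0.06. These shares, 27.3% and 18.2%, differ from the 12% and 13.8% of all rows by few genes. Ciita, the transactivator of MHC class II genes, fell 1.81-fold and Cd1d1, which presents α-GalCer, 1.28-fold, whereas the migration receptor gene Ccr7 and the inhibitory ligand gene Pdcd1lg2 rose 1.47 and 1.39-fold. Without KO 3, 1 of these fell. Mgl2, which also fell, is counted among the cDC2 markers above, and Ccr7 among the markers shared by dendritic cells. Of 17 targets of IRF8, 5 (29.4%) rose and 1 (5.88%) fell, with a median of 0.08. Of those that rose, Xcr1, Itgae and Wdfy4 are also counted among the cDC1 markers above, as is Naaa, which fell. Wdfy4 was named after its values were seen. The number that rose changed with the library left out. None rose without WT 1 or without KO 3, 2 rose without WT 2, and 3 with the DESeq2 Wald test. Over all rows, those called higher also went from 1826 to 1336 without WT 1, 1182 without KO 3 and 1333 without WT 2. Without KO 1 they went up to 1992.

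**Figure D5:**
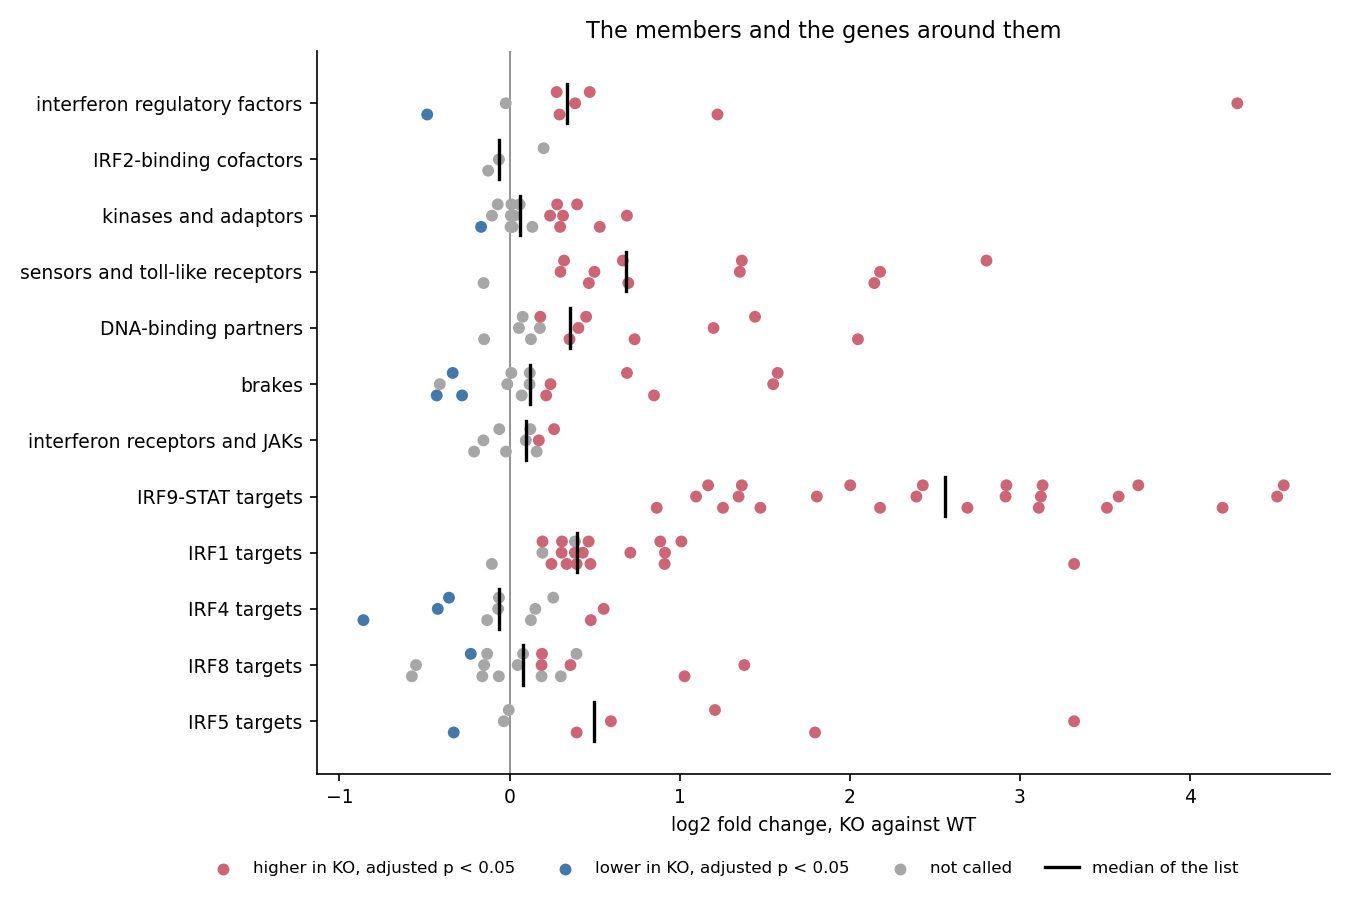
Log2 fold change of each tested gene in the 8 members and in 11 lists around them, with red for higher, blue for lower and grey for not called, and the median of each list as a black bar. IRF9-STAT targets lie between 0.87 and 4.55, sensors have a median of 0.68, and the medians of IRF4 and IRF8 targets are -0.06 and 0.08.

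The genes with profiles most like Irf7 and Irf9 were found by the root mean square difference of log2 CPM over the 6 libraries, each gene centred on its WT mean, among 10325 protein-coding genes. Nearest to Irf7 were Ifi44 (0.122), Tgtp2 (0.142) and Ifi206 (0.168), 3 interferon-induced genes at lower levels. Ifi44 had 0.828, 0.583 and 0.682 CPM in WT and 14.4, 19.1 and 15.1 CPM in KO. Nearest to Irf9 were Daxx (0.0562), Dtx3l (0.0581) and Mov10 (0.0667). Daxx, a histone chaperone gene, had 48.8, 47.3 and 49.0 CPM in WT and 98.7, 121 and 113 CPM in KO. Tgtp2 and Ifi206 have near-identical copies, and their single values are uncertain.

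The highest library of a genotype was often the same one. WT 1 was the highest WT library for 7 of the 8 members and for 21 of the 24 IRF9-STAT targets, against 30.4% of all rows tested. KO 2 was the highest KO library for 22 of those 24 targets, against 35.3% of all rows, and for Irf2, Irf4, Irf7 and Irf9 among the members. KO 1 was highest for Irf1, Irf3 and Irf8, and KO 3 for Irf5. This is a description of 6 libraries, with no test.

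Besides the markers shared by dendritic cells and those of plasmacytoid dendritic cells, 2 other sets differed between the genotypes. These were the markers of mast cells and basophils and those of macrophages and monocytes. The 8 mast cell and basophil markers summed to 51.0 to 58.0 CPM in WT and 82.4 to 89.5 in KO, and 4 of 5 tested rose. Most of that sum was Kit, which is also expressed by other progenitors and had 48.8 ± 2.89 CPM in WT and 73.9 ± 2.95 in KO (SD, n = 3). The defining receptor gene Fcer1a had 0 or 1 read in every library, and the basophil protease gene Mcpt8 had 3 to 6 reads in WT libraries and 19 to 21 in KO. Of the 12 macrophage and monocyte markers 5 rose, with Fcgr1 7.77-fold, Ly6c2 2.40-fold and Cd14 2.06-fold higher. Lyz2, which makes up most of their sum, fell 1.32-fold. Of the 9 neutrophil markers, Ngp and Camp rose, in sums of 34.7 to 49.3 CPM in WT and 42.0 to 61.8 in KO. Their part in the results of the members was not tested.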

How the data were processed

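Raw counts for 6 libraries, by gene symbol, were deposited by the authors in a single table. The submitters' processing notes name mm10, and list HTSeq, DESeq2, SAMtools, TopHat2, HISAT and HISAT2 with no role. Sources used here do not give the annotation or the strand setting. Of 23 repeated symbols the row with most reads kept the name. Rows passing filterByExpr (minimum count 10) were normalised by TMM, then tested by quasi-likelihood in edgeR 4.0.16 in R 4.3.3, genotype being the only term, with Benjamini-Hochberg adjustment over all 13249 rows. The SE is the log2 fold change divided by the square root of F. Positions and exon lengths are from GENCODE M21 (GRCm38), and start windows from RefSeq (GRCm38.p6). The common coefficient of variation between libraries of a genotype, beyond counting error, was 8.48%. Counting error adds most for genes with few reads.

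The members and lists were chosen with earlier results of these data known. Named were the members, Epas1, per list the 4 called genes with the smallest p (or 1 gene where none was called), and the 3 nearest profiles of members changed at least 2-fold. Any other gene was named after its values were seen. Alternatives were other scalings and filters, DESeq2 1.42.0, limma-voom (limma 3.58.1), a robust fit, a replicate block and each library left out. Added after seeing the data were offsets for GC content and length and leaving out together WT 2 and KO 1, which had the largest numbers of rows with a read. The test was checked on simulated data. No replicates agreed within sampling noise (chi-square per degree of freedom at least 3.9).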

Additional observations from a re-analysis of the deposited data

Results flagged for a closer look

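Ifnb1 lay outside the tested rows, but its reads in every KO library exceeded those in every WT library. They summed to 27 over the KO libraries (4, 11 and 12) against 1, 0 and 0 in WT. When edgeR was run on every row, Ifnb1 had a log2 fold change of 4.21 (adjusted p = 0.00188). That size rests on the prior count, and this p is adjusted over more rows than the p-values elsewhere. Its test had 122348 degrees of freedom, so it took almost nothing from the library-to-library spread of Ifnb1 itself. In that fit Irf9 had an edgeR adjusted p of 3.65e-68, against 5.17e-08 in the main fit.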

How the results depend on the processing

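The 7 calls among the members (6 higher, 1 lower) and their directions held in all 16 alternatives. The highest adjusted p over them was 0.0393 for Irf2, 0.0259 for Irf8 and 0.0165 for Irf4, and the lowest was 0.000399, 1.44e-05 and 0.000191. The 0.000399 and 0.000191 came from the edgeR fit with no low-count filter. With 122348 degrees of freedom, that fit takes almost nothing from the spread of each row, so its p-values are not comparable with the others. Irf3 turned sign with library size only (0.012), and with 1 library left out it ran from -0.067 to 0.038. Scaling to library size only moved the median of all rows from -0.0093 to 0.024 and made 62.3% of calls higher, against 53.5%.

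No member of the kinase and adaptor list fell (0 against 1) with library size only, no low-count filter, the DESeq2 Wald test, the replicate block, the GC and length offset, or without WT 2 and KO 1. With the DESeq2 Wald test 1 interferon receptor gene and 3 IRF8 targets rose. With limma-voom, and with the GC and length offset, 1 interferon receptor gene fell. That offset also gave 1 cofactor and 2 IRF8 targets that fell, and 0 IRF5 targets that fell. Without WT 2 and KO 1, 1 brake and 2 IRF8 targets fell. With 1 library left out, counts ran as follows: cofactors higher 0 to 1, kinases and adaptors lower 0 to 1, brakes lower 1 to 3, interferon receptor genes higher 0 to 4, IRF1 targets lower 0 to 1, IRF4 targets lower 1 to 3, IRF8 targets higher 0 to 5 and lower 0 to 2, and IRF5 targets lower 0 to 1. Sensors higher ran from 8 to 11, kinases and adaptors higher 6 to 7, and partners higher 7 to 9. Targets higher ran from 15 to 17 for IRF1, 2 to 3 for IRF4 and 4 to 5 for IRF5. Over all rows, 1182 to 1992 were called higher in these fits, against 1826. Of the other named genes, 868 of their values kept direction and call, 42 lost the call and 1 gained it, and Cd79b, not called, ran from -0.0022 (without KO 2) to 0.76. The causes were not tested.

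Deviations of same-numbered libraries correlated at 0.015, -0.11 and 0.080, against -0.21 to 0.18 for libraries with different numbers. With 3 libraries per genotype this cannot show whether the libraries were paired. The replicate block left the 7 member calls in place, with 1741 rows higher and 1506 lower in all against 1826 and 1586.

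With the longest transcript the per-length means in WT were 131 for Irf8, 124 for Irf5, 68.1 for Irf1, 20.3 for Irf2, 17.8 for Irf3 and 13.6 for Irf9. In KO they were 172 for Irf5, 160 for Irf8, 143 for Irf7, 89.0 for Irf1, 31.8 for Irf9, 24.6 for Irf2 and 17.5 for Irf3. With library size only, Irf5 in WT was 94.7. Depth limits Ifnb1, Siglech and the lowest markers, which were not tested or rest on few reads.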
